A study of Nematostella vectensis with 16 samples.

Results

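A set of 53 gene models of the starlet sea anemone, Nematostella vectensis, had higher transcript levels in anemones held in copper and not in anemones held in mercury. They were chosen from 27273 gene models by their scaled counts (CPM, the raw count divided by the library's total count, times 1000000). A gene was taken where its Cu mean was at least 3 CPM and at least 1.4 times the control mean, its Hg mean was less than 25% above the control mean, and every Cu library lay above every control library and above every Hg library. All 53 also passed the filter on low counts that kept 16276 gene models for testing, which a Cu mean of 3 CPM made likely. Differences between Cu, Hg and control in these genes were therefore set by the choice and are given below as a description. The Cd and Zn libraries had no part in the choice.

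Whole anemones aged 2 to 4 months were exposed for 24 h, each metal being given as its chloride at 100 µg/L. The groups were copper (Cu), mercury (Hg), cadmium (Cd) and zinc (Zn), with 3 pools of 5 anemones each, and untreated anemones (control) with 4 pools. All were kept in the dark in artificial seawater of 12.5 ppt at 18 °C, and each pool gave 1 messenger RNA library. A library holds the RNA of all tissues, so that more cells of a type and more RNA per cell cannot be told apart. The gene models carry identifiers that neither the files nor the RefSeq gene table used here pairs with names (0 matched), so no function is given for any of them, and cell type markers could not be read.

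As background, copper is an essential metal, a cofactor of redox enzymes such as cytochrome c oxidase and copper-zinc superoxide dismutase. Free copper ions cycle between oxidation states and can generate reactive oxygen species, and animal cells hold them low through membrane transporters, copper chaperones and metallothioneins. Mercury has no known biological function and binds tightly to thiol and selenol groups of proteins and small molecules. Zinc is essential and is not redox-active in cells, whereas cadmium is toxic to most animals and shares thiol-rich binding sites with zinc.

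Library totals ran between 5494659 and 8113825 counts, so that a gene at 3 CPM rested on few counts per library, with at least 14 in each Cu library for all 53 genes. Libraries of 1 group differed in sets of genes that move together: a set of 198 genes summed to 1508 to 2601 CPM in Cu 3, Hg 3, Cd 1, Zn 3 and controls 1 and 2, and to 312 to 672 CPM in the other 10 libraries. A second set of 60 genes was at 279 CPM in Cu 3 and at 828 and 892 CPM in controls 3 and 4, and each of the remaining 13 libraries had 43.0 to 63.6 CPM. None of the 53 genes was in either set (0 of 53), which the choice made likely. The first set was higher in controls 1 and 2 than in Cu 1 and Cu 2, and the second was highest in controls 3 and 4. A gene was taken only where every Cu library lay above every control. The 0 therefore does not show that the 53 genes are free of such differences between pools. Fits of the 10 libraries in which the 198-gene set was low, whose only controls are controls 3 and 4, and fits with controls 1 and 2 alone were also made, and the part of these sets in the results was not otherwise tested.

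By the criteria of the choice, the Cu mean was 1.402 to 3.506 times the control mean over the 53 genes, with a median of 1.59. Ratios of 2 or more were held by 7 genes and ratios under 1.5 by 15. The Hg mean was 0.499 to 1.247 times the control mean, with a median of 0.894, and lay below the control mean in 35 genes. The Cu means spanned 3.00 to 3440 CPM. Of the 53 genes, 21 had Cu means under 10 CPM, 20 had 10 to under 100 CPM and 12 had 100 CPM or more. Levels are not compared between genes, since gene lengths are not known for these models.

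The edges of the choice were narrow. The gene nearest the minimum level had a Cu mean of 3.00 CPM, against 2.92 CPM in the nearest gene outside it. Nearest the copper threshold the ratio of Cu to control was 1.402 inside and 1.397 outside. Nearest the mercury threshold the ratio of Hg to control was 1.247 inside and 1.254 outside. The lowest Cu library stood 1.01 times above the highest control in the gene just inside and at 0.991 times the highest control in the gene just outside. Against the highest Hg library the corresponding values were 1.013 and 0.999. Failing by 1 criterion alone kept out 81 genes for the copper ratio, 46 for the minimum level, 30 for overlap with a control, 15 for overlap with a Hg library and 9 for the mercury ratio.

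**Figure D1:**
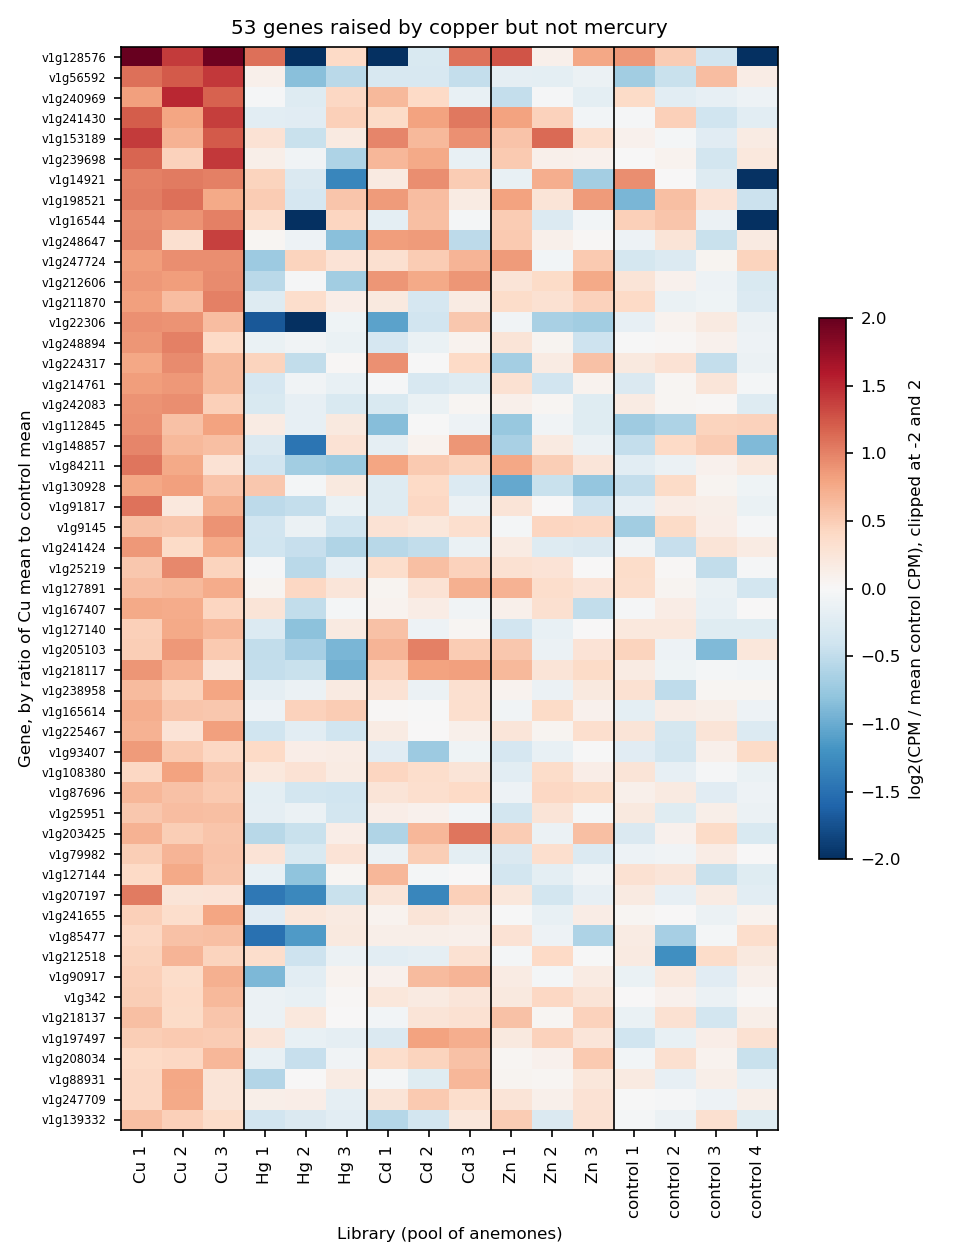
Heat map of the 53 genes (rows, ordered by the ratio of the Cu mean to the control mean) in 16 libraries (columns, grouped as Cu, Hg, Cd, Zn and control). Colour gives log2 of the CPM over the mean control CPM, clipped at -2 and 2. The Cu columns are above 0 throughout because the genes were chosen so, and the Cd and Zn columns, which had no part in the choice, are mixed, with means above control in 41 genes for Cd and 36 for Zn. The control means were used in the choice, and no share over all genes was worked out for these counts.

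The pair of genes with the largest ratio of Cu to control were v1g128576 and v1g56592. v1g128576 had 3.76, 2.46 and 3.61 CPM in the Cu pools, 2.00, 0 and 1.23 CPM in the Hg pools, 0.160, 0.754 and 1.97 CPM in the Cd pools, 2.24, 1.01 and 1.59 CPM in the Zn pools, and 1.70, 1.32, 0.715 and 0 CPM in the controls. These levels rest on 62 counts in the 3 Cu libraries together and 25 in the 4 controls, and the Cu libraries lay above all others by a narrow margin over Zn 1. v1g56592 had 102, 112 and 128 CPM in Cu, 51.0, 26.9 and 32.9 CPM in Hg, 38.2, 38.1 and 34.5 CPM in Cd, 42.1, 41.6 and 44.1 CPM in Zn, and 29.6, 35.2, 73.1 and 53.1 CPM in the controls. Its Cu libraries stood clear of all 13 others, and its controls spread more widely than its Cd or Zn libraries.

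The pair that took the most counts were v1g241424 and v1g240969. v1g241424 had 3912, 2803 and 3603 CPM in Cu, 1634, 1552 and 1414 CPM in Hg, 1464, 1526 and 1961 CPM in Cd, 2405, 1797 and 1753 CPM in Zn, and 2041, 1565, 2575 and 2396 CPM in the controls. The lowest of its Cu libraries, Cu 2, was only slightly above the highest control. v1g240969 had 1527, 2476 and 1966 CPM in Cu, 857, 729 and 1162 CPM in Hg, 1363, 1145 and 783 CPM in Cd, 625, 857 and 754 CPM in Zn, and 1137, 747, 775 and 811 CPM in the controls. Here Cu 2 was the highest Cu library, not the lowest, and no Cd library reached the Cu libraries, although Cd 1 and Cd 2 lay above every control. All 53 genes together took 0.871% ± 0.0132 of counts in Cu, 0.411% ± 0.0231 in Hg, 0.498% ± 0.00918 in Cd, 0.483% ± 0.0449 in Zn (SD, n = 3 each) and 0.492% ± 0.0404 in controls (SD, n = 4). Without v1g241424 and v1g240969, the sum for Cd was 2234 ± 19.5 CPM and for Zn 2101 ± 188 CPM (SD, n = 3 each). Control then had 1913 ± 88.4 CPM (SD, n = 4), below both means, although Zn 2 and Zn 3 lay below control 2. Copper had 3282 ± 83.3 CPM and mercury 1661 ± 85.0 CPM (SD, n = 3 each). The position of Cd and Zn against control thus depended on this pair, and the control levels were used in the choice.

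In the fit across all genes, 18 of the 53 genes were called higher in Cu than in control (quasi-likelihood test of edgeR, p adjusted by Benjamini and Hochberg, threshold 0.05), against a background of 3% of the 16276 genes tested. The choice used this contrast, so the count says how many of its genes pass an adjusted threshold and nothing more. Of these 18, 10 had Cu means of at least 100 CPM and 1 had a Cu mean under 10 CPM. The median log2 fold change of Cu over control was 0.64 for the 53 genes and -0.02 for all genes tested. The count of 18 was 8 without Cu 1, 8 without Cu 3, 11 without control 4 and 8 with controls 1 and 2 alone.

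Against Hg directly, 29 of the 53 genes were called higher in Cu, beside a background of 4.37%, again a contrast the choice used. In Hg against control 0 genes were called higher and 3 lower (edgeR), where 15% and 11.7% of all genes tested were. The choice used this contrast too, taking only genes with a Hg mean less than 25% above control. Few or no higher genes in Hg were thus set by the choice. The shares of all genes are not a like background for the Hg counts, which are a description. At an unadjusted p under 0.05, 0 of the 53 were higher in Hg and 8 lower (19.1% and 18.2% of all genes tested), and DESeq2 likewise called 0 higher and 3 lower. Every Hg library lay above every control in 0 genes and below in 3 (16.9% and 13.1%). The 3 genes that edgeR called lower in Hg were v1g218117, v1g84211 and v1g241424, of which v1g241424 had Hg 1 above control 2, at -0.64 ± 0.15, -0.61 ± 0.16 and -0.50 ± 0.17 on the log2 scale (SE; edgeR adjusted p = 0.005, 0.0103 and 0.04). Without Hg 3 the count of genes called in Hg was 5, all lower, and without Hg 1 it was 3, of which 1 was higher.

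The pair with the largest ratio of Cu to Hg were v1g22306 and v1g56592, at 3.52 and 3.09. v1g22306 had 4.44, 4.39 and 3.61 CPM in Cu, 0.728, 0.585 and 2.22 CPM in Hg, 1.12, 1.81 and 3.42 CPM in Cd, 2.24, 1.51 and 1.46 CPM in Zn, and 2.09, 2.48, 2.68 and 2.18 CPM in the controls. Its Hg libraries Hg 1 and Hg 2 lay below every control and Hg 3 among them. All its levels rest on few counts, 77 in the 3 Cu libraries together.

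How far 1 Cu library carries the choice was read by leaving each out. The criteria applied without Cu 1 chose 82 genes, and in 50 of these Cu 1 lay above every control and every Hg library, where 9.31% of all genes tested did. Without Cu 2 the criteria chose 85 genes, of which 55 had Cu 2 above every control and Hg library (background 11.4%). Without Cu 3 they chose 151 genes, of which 52 had Cu 3 above them (background 5.43%). The median ratio of the left-out library to the control mean was 1.39 for Cu 1, 1.31 for Cu 2 and 1.17 for Cu 3 over these genes, against the minimum of 1.4 that the choice sets on the Cu mean. The controls and Hg libraries stayed in use for the choice throughout, being chosen to lie below the other Cu libraries. This makes it easier for the left-out Cu library to lie above them. The shares over all genes tested are thus not a like background, and the counts are a description. Cu 3 is also the Cu library in which the 198-gene and 60-gene sets were high, and the part of these in its lower ratio was not tested.

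Cadmium and zinc were next set against copper. The Cd and Zn libraries were not used to choose the genes, whereas the Cu libraries were chosen to be high, so the direction of these differences follows in part from the choice. Of the 53 genes, 6 were called higher in Cu than in Cd and 0 lower (edgeR), beside 2.16% and 0.375% of all genes tested. At an unadjusted p under 0.05, 23 were higher and 0 lower (6.92% and 4.8% of all genes), and DESeq2 called 8 higher and 0 lower. In Cu against Zn, 8 were called higher and 0 lower, beside 2.82% and 0.786% of all genes, with 24 higher and 0 lower at an unadjusted p under 0.05 (8.77% and 6.51%) and 11 higher and 0 lower by DESeq2. These shares are those of the edgeR fit, and none was worked out for DESeq2. The median log2 fold change was 0.45 over Cd and 0.56 over Zn, where all genes tested had -0.03 and -0.02. Every Cu library lay above every Cd library in 28 genes (7.91% of all genes tested) and above every Zn library in 35 (12.5%). In 23 genes every Cu library lay above all 6 Cd and Zn libraries (5.99% of all genes tested) and so, by the choice, above all 13 libraries of the other groups (0.338%). Of the 21 genes with Cu means under 10 CPM, 0 were called by edgeR in either contrast, whereas 6 of them were called in Cu against Hg and 1 in Cu against control, contrasts the choice used.

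The 8 genes called in at least 1 of these contrasts are named here after their values were seen. Both contrasts use the same Cu libraries. v1g56592, whose levels stand above, was 1.65 ± 0.27 higher in Cu than in Cd on the log2 scale (SE; edgeR adjusted p = 0.00273) and 1.402 ± 0.26 higher than in Zn (adjusted p = 0.00741). v1g241424 differed by 1.08 ± 0.18 from Cd (SE; edgeR adjusted p = 0.00199) and by 0.78 ± 0.18 from Zn (adjusted p = 0.0217). Its call against Zn was lost without Cu 1, Cu 3, Zn 2 or Zn 3, at edgeR adjusted p = 0.094, 0.0927, 0.109 and 0.105. In the 10 libraries alone both of its calls were lost, at edgeR adjusted p = 0.0641 against Cd and 0.193 against Zn. In both genes the Cd means, 36.9 and 1650 CPM, and the Zn means, 42.6 and 1985 CPM, were below the control means of 47.7 and 2144 CPM, by less than the SD of the controls in v1g56592 and, for Zn, in v1g241424.

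A further group of 3 genes, v1g214761, v1g242083 and v1g248894, had closely similar contrasts. v1g214761 had 877, 895 and 773 CPM in Cu, 390, 467 and 442 CPM in Hg, 485, 395 and 413 CPM in Cd, 608, 376 and 516 CPM in Zn, and 400.3, 505, 581 and 480 CPM in the controls. v1g242083 had 212, 217 and 158 CPM in Cu, 92.8, 101 and 92.1 CPM in Hg, 92.6, 104 and 118 CPM in Cd, 123, 117 and 96.7 CPM in Zn, and 128, 117, 116 and 95.7 CPM in the controls. In all 3 genes Cu 3 was the lowest of the Cu libraries and still above every library of the other groups. v1g248894 had 109, 119 and 78.5 CPM in Cu, 54.1, 56.4 and 54.1 CPM in Hg, 47.0, 54.0 and 62.1 CPM in Cd, 70.7, 61.3 and 44.4 CPM in Zn, and 59.1, 59.98, 62.7 and 55.1 CPM in the controls. The log2 differences of Cu from Cd were 0.99 ± 0.15, 0.92 ± 0.14 and 0.92 ± 0.15 for v1g214761, v1g242083 and v1g248894 (SE; edgeR adjusted p = 0.000944, 0.000873 and 0.00161). From Zn they were 0.74 ± 0.15, 0.78 ± 0.14 and 0.77 ± 0.15 (SE; edgeR adjusted p = 0.00953, 0.00304 and 0.0062). The call of v1g214761 in Zn was lost without Zn 2 (edgeR adjusted p = 0.0532) and in the 10 libraries alone (adjusted p = 0.113), and that of v1g248894 in a fit of Cu and Zn alone (adjusted p = 0.0574).

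v1g93407 had 30.4, 24.4 and 22.5 CPM in Cu, 22.2, 18.6 and 18.7 CPM in Hg, 14.4, 10.2 and 15.9 CPM in Cd, 13.4, 15.2 and 16.7 CPM in Zn, and 14.4, 13.1, 18.2 and 21.9 CPM in the controls. Its highest control and its highest Hg library were close below its lowest Cu library, which stood 1.013 times above the highest Hg library. It was 0.94 ± 0.19 higher in Cu than in Cd on the log2 scale (SE; edgeR adjusted p = 0.00748) and 0.74 ± 0.18 higher than in Zn (adjusted p = 0.0296), a call in Zn that was lost on leaving out any 1 of the Cu or Zn libraries, at adjusted p of 0.0528 to 0.145, and in the 10 libraries alone (adjusted p = 0.0562). v1g130928 and v1g240969 were called against Zn and not against Cd. v1g130928 had 48.0, 49.8 and 41.9 CPM in Cu, 41.1, 27.5 and 32.3 CPM in Hg, 23.6, 37.2 and 23.4 CPM in Cd, 13.9, 20.7 and 16.5 CPM in Zn, and 20.3, 36.7, 29.3 and 26.5 CPM in the controls. Its log2 difference from Zn was 1.42 ± 0.20 (SE; edgeR adjusted p = 0.000409) and from Cd 0.75 ± 0.19 (adjusted p = 0.0506). For v1g240969 the values were 1.39 ± 0.28 from Zn (SE; edgeR adjusted p = 0.0106) and 0.87 ± 0.27 from Cd (adjusted p = 0.143), and the call in Zn was lost without Cu 2 (adjusted p = 0.0545) or Zn 1 (adjusted p = 0.0612). The direct contrast of Cd with Zn called neither v1g130928, at 0.67 ± 0.20 (SE; edgeR unadjusted p = 0.00464, adjusted p = 1), nor v1g240969, at 0.52 ± 0.27 (adjusted p = 1), so a difference between Cd and Zn is not shown for them.

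**Figure D2:**
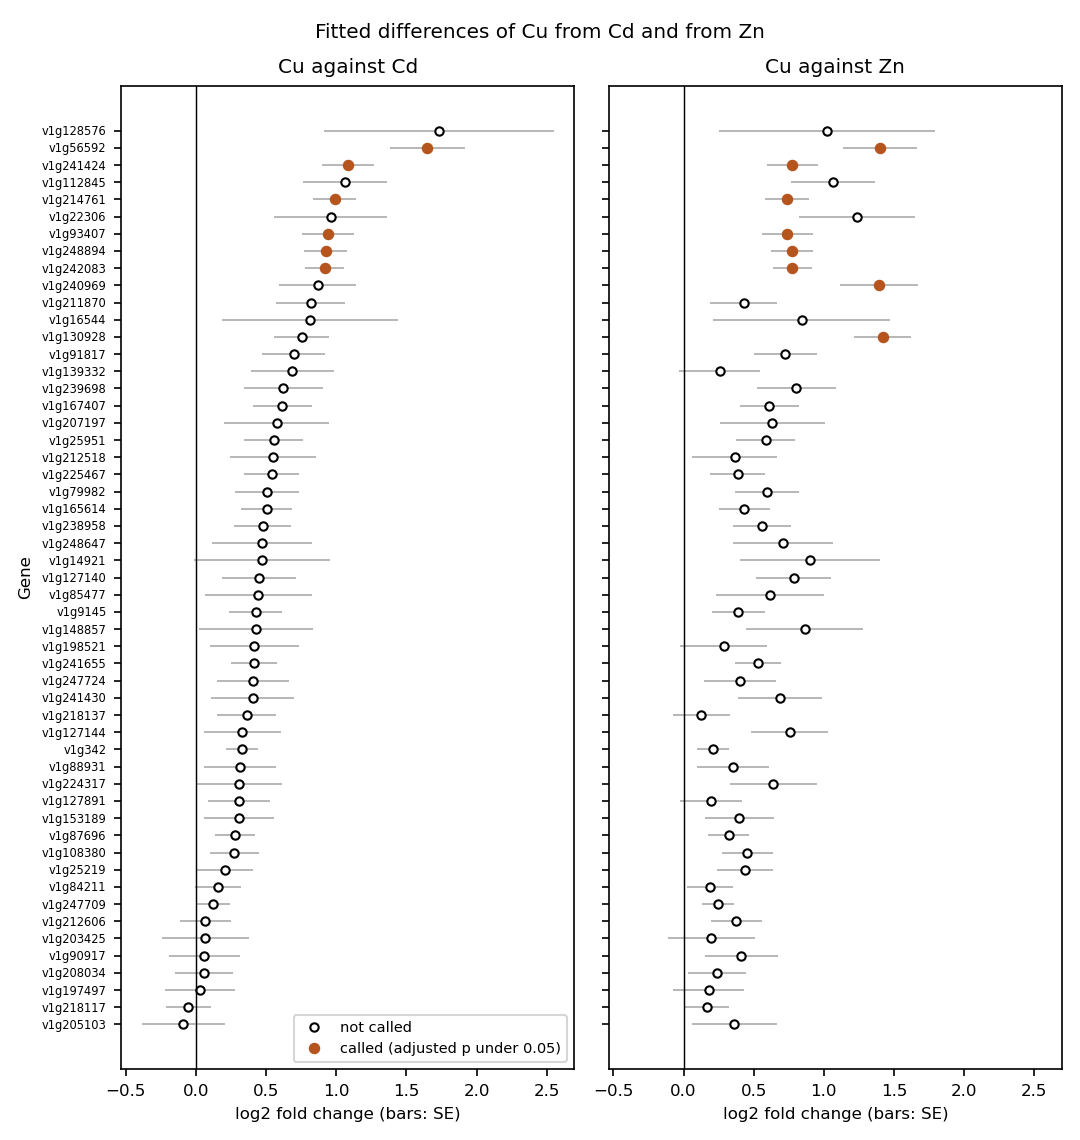
Fitted log2 fold changes of Cu against Cd (left) and of Cu against Zn (right) for the 53 genes, in the same order in both panels, with bars for the SE. Filled points passed an edgeR adjusted p under 0.05, 6 genes on the left and 8 on the right, and values run between -0.09 and 1.73 on the left and between 0.13 and 1.42 on the right.

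At the other end were genes whose Cd and Zn levels approached those in copper. The share of the Cu rise reached in another metal is the difference between its mean and the control mean, as a percentage of that between the Cu mean and the control mean. Over the 53 genes this share had a median of 30.1% in Cd and 17.7% in Zn, with ranges of -38.1% to 122% and -60.5% to 69.3%. It was at least 50% in 17 genes for Cd and in 9 for Zn, and at or below 0 in 12 and 17. The Cd mean was at or above the Cu mean in 2 genes, v1g205103 and v1g218117, and the Zn mean in 0. Cd and Zn means were both above control in 33 genes and both below in 9, and 8 genes had Cd above and Zn below, 3 the opposite. No share over all genes was worked out for these counts. The same controls enter both shares, and they were chosen to be low relative to Cu; the part of that choice in these values was not tested.

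The pair with the highest mean of the Cd and Zn ratios to control were v1g153189 and v1g212606. v1g153189 had 9.40, 5.79 and 8.33 CPM in Cu, 4.37, 2.63 and 4.07 CPM in Hg, 7.06, 5.58 and 6.71 CPM in Cd, 5.28, 7.79 and 4.52 CPM in Zn, and 3.79, 3.47, 3.04 and 3.99 CPM in the controls. v1g212606 had 34.2, 33.7 and 36.1 CPM in Cu, 12.9, 18.4 and 11.6 CPM in Hg, 34.5, 31.6 and 34.5 CPM in Cd, 22.6, 24.5 and 31.9 CPM in Zn, and 22.4, 19.99, 17.5 and 15.2 CPM in the controls. In both genes every Cu, Cd and Zn library lay above every control, and 1 of 3 Hg libraries of v1g212606, Hg 2, lay among the controls and the others below them. Neither passed the test in Cd or Zn against control. In Cd the log2 fold change was 0.80 ± 0.17 for v1g212606 (SE; edgeR adjusted p = 0.358) and 0.82 ± 0.25 for v1g153189 (adjusted p = 0.585), and in Zn it was 0.49 ± 0.17 and 0.73 ± 0.25 (adjusted p = 0.609 for both). v1g212606 was called in Cd by DESeq2 (adjusted p = 0.021) and in the 10 libraries alone (edgeR adjusted p = 0.0176). The direct difference of Cu from Cd was 0.07 ± 0.18 for v1g212606 and 0.31 ± 0.25 for v1g153189 (SE; edgeR adjusted p = 0.942 and 0.716).

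v1g218117 and v1g84211, both lower in Hg than in control, were of the same kind in Cd and Zn. v1g218117 had 249, 217 and 159 CPM in Cu, 96.3, 98.2 and 69.0 CPM in Hg, 184, 234 and 238 CPM in Cd, 211, 161 and 175 CPM in Zn, and 151, 127, 130.3 and 129 CPM in the controls. v1g84211 had 114, 92.1 and 66.9 CPM in Cu, 41.7, 33.6 and 32.5 CPM in Hg, 93.9, 78.5 and 74.6 CPM in Cd, 93.7, 76.9 and 64.7 CPM in Zn, and 47.1, 50.6, 57.9 and 62.9 CPM in the controls. In both genes all 9 Cu, Cd and Zn libraries lay above all controls and all 3 Hg libraries lay below them. Cu differed from Cd by -0.06 ± 0.16 in v1g218117 and by 0.16 ± 0.17 in v1g84211 on the log2 scale (SE; edgeR adjusted p = 0.948 and 0.808). The difference of Cd from control in v1g218117 was 0.67 ± 0.15 on the log2 scale (SE; edgeR adjusted p = 0.358), which DESeq2 called (adjusted p = 0.021), as did edgeR in the 10 libraries alone (adjusted p = 0.00721).

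The pair with the lowest mean of the Cd and Zn ratios were v1g130928, given above, and v1g112845. v1g112845 had 7.69, 6.14 and 7.08 CPM in Cu, 4.55, 3.65 and 4.68 CPM in Hg, 2.25, 4.07 and 3.81 CPM in Cd, 2.40, 3.90 and 3.45 CPM in Zn, and 2.49, 2.64, 5.54 and 5.62 CPM in the controls. Its Cu libraries were above the other 13, and its controls fell into a low pair, controls 1 and 2, and a high pair. Its log2 difference of Cu from Cd was 1.06 ± 0.30 (SE; edgeR adjusted p = 0.073) and from Zn 1.07 ± 0.30 (adjusted p = 0.057).

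**Figure D3:**
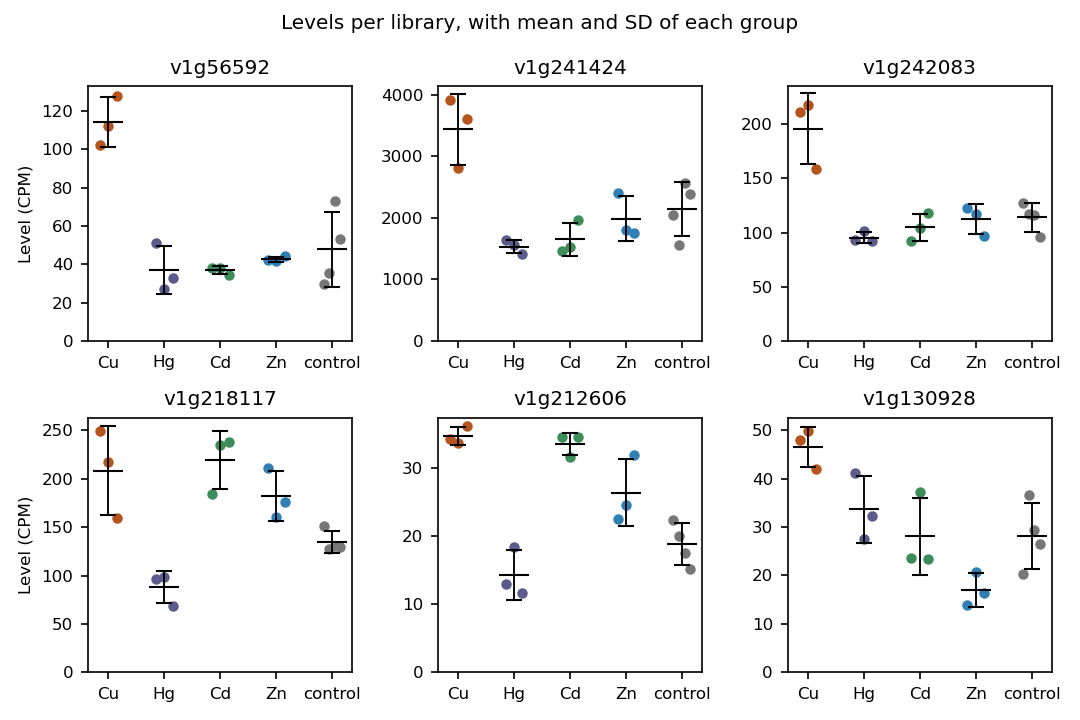
Levels in CPM of 6 of the genes in every library (points), with the group mean and SD (n = 3 pools per metal, 4 for control), in the order Cu, Hg, Cd, Zn and control. In v1g56592, v1g241424 and v1g242083 the Cu libraries stand above all others, with Cd means of 36.9, 1650 and 105 CPM; in v1g218117 and v1g212606 the Cd means of 219 and 33.5 CPM are close to the Cu means of 208 and 34.7 CPM; in v1g130928 the Zn mean of 17.0 CPM is the lowest of the 5.

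Over all 53 genes, 0 were called in Cd against control and 0 in Zn against control by edgeR, beside 0.0184% and 0.00614% of all genes tested called higher and 0% called lower in both. At an unadjusted p under 0.05, 10 were higher and 1 lower in Cd (3.64% and 3.39% of all genes tested), and 7 higher and 1 lower in Zn (3.16% and 3.87%). DESeq2 called 2 in Cd, both higher, with adjusted p-values for 27 of the 53 genes, and 0 in Zn. In the 10 libraries alone edgeR called 3 higher in Cd, v1g212606, v1g218117 and v1g241430, and 1 higher in Zn, also v1g241430. In v1g241430 Cd 1 (190 CPM) and Zn 3 (140.1 CPM) lay below control 2 (203 CPM). None of these libraries is among the 10, so its calls there leave out the overlap. No share of all genes was worked out for DESeq2 or for the 10 libraries. Their counts therefore cannot be set against the shares given here. Every Cd library lay above every control in 9 genes (3.97% of all genes tested) and every Zn library in 5 (2.69%), and the opposite held in 0 and 0 (1.7% and 3.08%). The median log2 fold change of the 53 genes was 0.18 in Cd and 0.13 in Zn, with 39 and 37 genes above 0, where all genes tested had medians of -0.001 and -0.006 and 49.8% and 48.8% above 0. These comparisons share the controls, which were used in the choice.

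Cd against Zn was the 1 contrast free of libraries used in the choice. It gave 0 calls among the 53 genes (edgeR; DESeq2 also 0), as it did among all genes tested (0% called). At an unadjusted p under 0.05, 1 gene was higher in Cd, v1g130928, and 0 lower, beside 2.17% and 1.51% of all genes. The median log2 difference was 0.06, with Cd above Zn in 34 genes (64.2%). Over all genes tested it was 0.006, with Cd above Zn in 51.3%. Every Cd library lay above every Zn library in 3 genes (6.78% of all genes tested) and below in 2 (2.99%).

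Library by library, the median ratio of the 53 genes to their control means was 1.70, 1.60 and 1.56 in the Cu pools, 0.901, 0.841 and 1.01 in the Hg pools, 1.09, 1.19 and 1.23 in the Cd pools, 1.14, 1.07 and 1.07 in the Zn pools, and 1.00, 1.01, 1.02 and 0.935 in the controls. Over all genes tested the same medians ran between 0.9004 and 1.05. Every Cd and Zn library was above 1, and Hg 3 alone of the Hg libraries was. The control means and the Hg levels were used in the choice, and the part of that choice in these medians was not tested. Among these 53 genes the median SD of log2(CPM + 0.5) between pools was 0.171 in Cu, where the choice required libraries to stand together above others, 0.289 in Hg, 0.258 in Cd, 0.262 in Zn and 0.264 in control. All genes tested had medians of 0.191, 0.203, 0.200, 0.182 and 0.238 in the same groups.

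**Figure D4:**
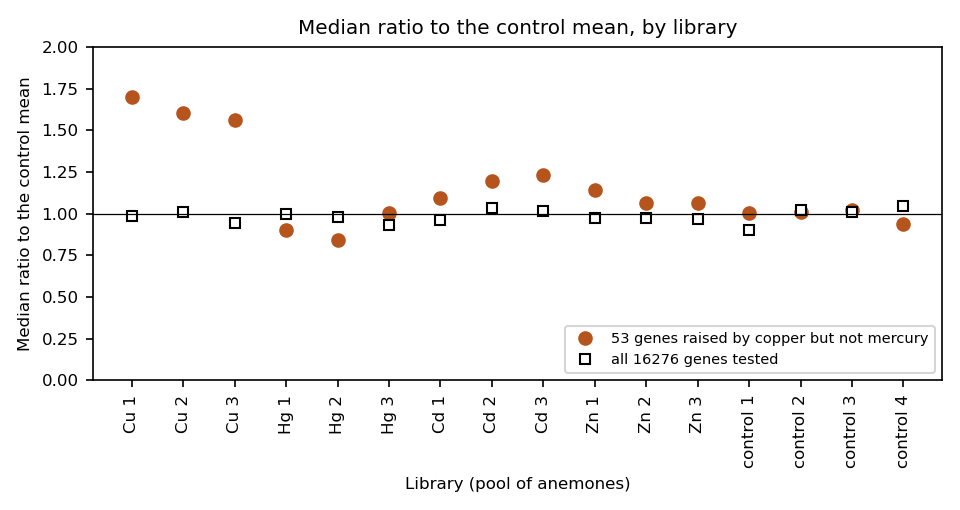
Median ratio to the control mean in each library, over the 53 genes (filled circles) and over all genes tested (open squares), with a line at 1. The Cu libraries stand at 1.56 to 1.70, the Cd and Zn libraries at 1.07 to 1.23, and the squares between 0.9004 and 1.05. The Cu, Hg and control levels of the 53 genes were used in the choice.

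Among the 1378 pairs of these genes, deviations from the group means across 16 libraries had a median Pearson correlation of 0.0561, and 6 pairs were above 0.8, given here as a description. The closest were v1g239698 with v1g248647 (r = 0.972) and v1g127140 with v1g127144 (r = 0.966). v1g239698 had 124, 76.7 and 148 CPM in Cu and 87.6, 94.2 and 49.8 CPM in Cd, and v1g248647 had 42.7, 27.2 and 56.1 CPM in Cu and 38.8, 39.3 and 15.3 CPM in Cd. Both were thus lowest in Cu 2 among the Cu pools and lowest in Cd 3 among the Cd pools. v1g242083 and v1g248894, described above, had r = 0.867. Whether genes of a pair share reads through similar sequence could not be read from these files, and the libraries of a pair share depth and any library effect. By the profile over the 5 group means, the pair of genes most like v1g128576 were v1g243415 and v1g205896 (r = 0.998 and 0.996, n = 5 group means), neither of them among the 53. v1g243415 averaged 12.5 ± 2.6 CPM in Cu, 10.4 ± 2.1 in Hg, 10.5 ± 0.47 in Cd, 11.1 ± 0.83 in Zn (SD, n = 3 each) and 10.4 ± 1.1 CPM in controls (SD, n = 4), so the likeness is not one of size. The means of v1g128576, v1g243415 and v1g205896 were all highest in Cu and next in Zn. The order of Hg, Cd and control was not shared, with Cd above Hg in v1g243415 and v1g205896 and below it in v1g128576.

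In the authors' deposited table for Cu the fold of the 53 genes was between 1.402 and 3.425, with a median of 1.58. Of the 53, 11 were higher at an adjusted p under 0.05, where 280 of all genes were. The choice used the same Cu, Hg and control libraries, so the counts for Cu and Hg are a description. The fit across all libraries also called 10 of these 11. In the authors' deposited table for Hg 0 were higher at that threshold, where 1586 of all genes were. There 3 were lower, and the number of all genes lower was not counted. In the authors' deposited table for Cd 1 was higher, v1g218117, with a fold of 1.59 and an adjusted value of 0.0359 in a column that passes 1 for other genes and so was read as a score. Of all genes, 7 were higher there at a value under 0.05. In the authors' deposited table for Zn 0 were higher or lower, where 6 of all genes were higher. No share over all genes was worked out for the authors' calls. Whether their counts among the 53 differ from such a share is therefore not shown.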

How the data were processed

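The authors deposited 4 tables, 1 per metal, with raw counts per gene model for the 4 controls and 3 metal libraries; control counts were the same in all 4. Per the file headers the tables also hold base means (a normalized signal), fold changes as ratios, p-values and adjusted p-values; for Cd the authors' adjusted values pass 1 for some genes, so that column was read as a score. STAR, Partek and DESeq are named in the submitters' processing notes without versions; genome build, read length and strand: not given in the sources used here. Of 38762 genes in the RefSeq table, 0 matched an identifier.

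Counts were fitted in R 4.3.3 with edgeR 4.0.16: filterByExpr, TMM scaling and 1 robust quasi-likelihood fit of all 16 libraries with 1 term per group and Benjamini-Hochberg adjustment over 16276 genes (threshold 0.05). An SE is the log2 fold change over the square root of F. Levels (CPM) are counts over the column total, times 1000000. Pool-variable sets were rebuilt from log2 CPM (prior count 2) as genes correlated above 0.8 with a lead gene, which for the 60-gene set was known from earlier results. The fit was tested on simulated data in which genes varied independently, without the pool-variable sets. How it handles such sets was therefore not tested. Alternatives were DESeq2 1.42.0, its size factors in edgeR, no filter, fits of the groups compared, a replicate block and left-out libraries. The genes and tests were chosen with earlier results of these data known. The rule for named genes took the pair at each end of the ratios and levels described, the genes at each threshold, members called in Cd or Zn contrasts where at most 5 were, and the pair most like the gene with the largest ratio of Cu to control; v1g218117, v1g84211, v1g241430, v1g205103, v1g16544, the pairs with correlated deviations and the genes called against Cd or Zn were named after their values were seen. Labels give separate pools as replicates, so the tests set a difference between groups against the spread between pools. That spread was estimated over all groups together, with information shared across genes.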

Additional observations from a re-analysis of the deposited data

Results flagged for a closer look

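Among 17 control values examined (16 of the genes and the summed level of all 53), 1 had a library far from the other 3 by Dixon's ratio. v1g240969 had 1137 CPM in control 1, where controls 2 to 4 had 747, 775 and 811 CPM. Chance flags about 1 in 20 such groups. Control 1 is 1 of the 6 libraries in which the 198-gene set was high, and its part in this value was not tested.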

How the results depend on the processing

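The number of genes chosen was 53 as given and 47 with TMM-scaled or 50 with DESeq2-scaled CPM, of which 40 and 43 were among the 53. It was 79 at a minimum of 1 CPM, 32 at 10 CPM, 38 and 7 at Cu ratios of 1.5 and 2, 35 with a Hg ratio under 1 and 164 where libraries could overlap, and 54 to 151 without 1 library. Leaving out 1 library gave 8 to 21 of the 53 called in Cu against control (18 as given), 20 to 28 in Cu against Hg (29), 2 to 5 in Hg against control (3), 6 to 7 in Cu against Cd (6) and 5 to 7 in Cu against Zn (8; 5 without Zn 2), and 0 in Cd against control, Zn against control and Cd against Zn. With controls 1 and 2 alone Cu against control gave 8. The 10 libraries alone gave 3 in Cd and 1 in Zn against control, and DESeq2 gave 2 in Cd, where the main count was 0. A fit of Cu and Zn alone gave 13 in Cu against Zn. The cause of these changes was not tested, nor was the part of the smaller number of libraries in some of the fits. Shares of all genes called were worked out for the main edgeR fit only. Whether the other fits call more or fewer genes in general is therefore not shown. For the 8 genes called against Cd or Zn no alternative changed a direction; 1 of 72 values in Cd and 17 of 96 in Zn lost the call.

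Deviations of same-numbered libraries had correlations above 0.1 in 7 of 30 pairs (range -0.269 to 0.394). The highest was that of Hg 3 with Zn 3, and Cu 3 had 0.238 with Hg 3 and 0.261 with Zn 3. These are libraries in which the larger pool-variable set was high. Cd 3, in which it was low, had -0.194 with Cu 3, -0.269 with Hg 3 and -0.215 with Zn 3. Libraries of different numbers were not compared, so whether the replicate numbers pair the samples was not tested. A fit with the replicate number as a block called 13 of the 53 in Cu against control, 26 in Cu against Hg, 4 in Hg against control, 7 in Cu against Cd, 9 in Cu against Zn and 0 in the other 3 contrasts. The part of depth in the calls was not tested.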

Other observations

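v1g16544 and v1g128576 had low values in the same libraries (correlation of deviations 0.867 across 16 libraries, a description). v1g16544 had 51.3, 49.7 and 53.1 CPM in Cu, 33.5, 5.26 and 35.9 CPM in Hg, 23.1, 40.4 and 25.9 CPM in Cd, 37.6, 22.0 and 25.6 CPM in Zn, and 36.8, 38.8, 24.5 and 5.98 CPM in the controls. Its lowest libraries were Hg 2 and control 4, the same libraries in which v1g128576 had no count. Neither gene was called in Cu against control, at 0.92 ± 0.58 in v1g16544 and 1.71 ± 0.76 in v1g128576 on the log2 scale (SE; edgeR adjusted p = 0.5 and 0.273).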
